A study of Mus musculus with 10 samples.

Results

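Single cells taken on day 6 (named d6p) were compared with single cells taken on day 5 (named d5) while fibroblasts were being reprogrammed with chemicals. Cells belonged to the comparison when their name began with d6p or d5 and at least 4000 genes were detected in them. This gave 86 of 96 deposited d6p cells and all 36 d5 cells, or 122 of the 670 kept cells of the series. The cells on both days were mouse embryonic fibroblasts (MEFs) from ICR embryos, cultured in the C6FAE cocktail until they were picked by hand. The cocktail holds CHIR99021 (a GSK3 inhibitor), RepSox (an ALK5 inhibitor, abbreviated 6), Forskolin (which raises cAMP), AM580 (an agonist of retinoic acid receptors) and EPZ004777 (a Dot1L inhibitor). The course leads towards cells like extraembryonic endoderm (XEN). The medium was changed every 4 days, and how long before picking is not stated. The meaning of the p in d6p is not stated, and no untreated culture of either day was analysed here.

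RNA was counted per gene and cell as unique molecular identifiers (UMIs), so that copies of 1 molecule made by PCR count once. The median was 751825 UMIs per cell at d5 (48310 to 4481234) and 411772 at d6p (29666 to 6004864). Spike-in RNAs made up a median of 4.45% of the counts at d5 and 3.33% at d6p. Levels are given as CPM, the UMIs of a gene per 1000000 UMIs of its cell. The series lists 10 batches, and the name of a cell holds its day and a number but no batch. A table of cell barcodes and annotations that the labels name was not analysed here. Without it no cell was assigned to a batch, so all cells of a day were taken as 1 sample, no test was made between the days, and spread over cells stands in place of spread between cultures. Cells at d5 were numbered up to 36. Those at d6p were numbered up to 96, and 41 of them numbered 1 to 48 and 45 numbered 49 to 96 were compared with d5 separately.

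GSK3 inhibition stabilises beta-catenin, which then switches on Wnt target genes, many of which code for inhibitors of the same pathway. ALK5 is the type I receptor through which TGF-beta raises collagens and contractile proteins in fibroblasts. cAMP acts through the factor CREB on fast-responding genes such as *Fos*, which also answer to growth factors through the kinase ERK. Fibroblasts secrete most of the collagen and proteoglycan of connective tissue, whereas XEN cells depend on *Sox17*, *Gata4*, *Gata6* and *Sall4*.

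Genes that stood higher at d6p included *Adh1*, *Akap5*, *Sostdc1*, *Cpxm1* and *Igf1*, and 12 genes of the extracellular matrix such as *Dcn*. Among those that stood lower were 36 of 42 genes of mitosis, 11 of 21 Wnt targets, 8 of 20 BMP genes and 8 of 21 immediate early genes, by the rule on both scales given below. These lists share members. *Bambi* and *Msx1* were counted as Wnt targets and as BMP genes, and *Myc* as a Wnt target and as an immediate early gene. Differences were first taken as the mean log2(CPM + 1) over d6p cells minus that over d5 cells, for 9868 genes with a mean of at least 1 on either day. By this measure 400 genes (4.05%) were higher by over 1 at d6p and 2869 (29.1%) were lower by over 1, with a median over all genes of -0.61. On the second scale, the log2 ratio of mean CPM + 1, 735 genes (7.45%) were higher, 1234 (12.5%) were lower and the median was -0.13. The first measure weighs the many cells with few UMIs of a gene, the second the few cells with many. A gene is called higher or lower below where it passed 1 on both scales, which 319 genes did upwards (3.23%) and 957 downwards (9.7%). With 35 d5 cells and 81 d6p cells thinned to 50000 UMIs each, 386 genes were higher and 2613 lower on the first scale. The 1 d5 cell and 5 d6p cells with fewer UMIs were left out of that count.

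**Figure D1:**
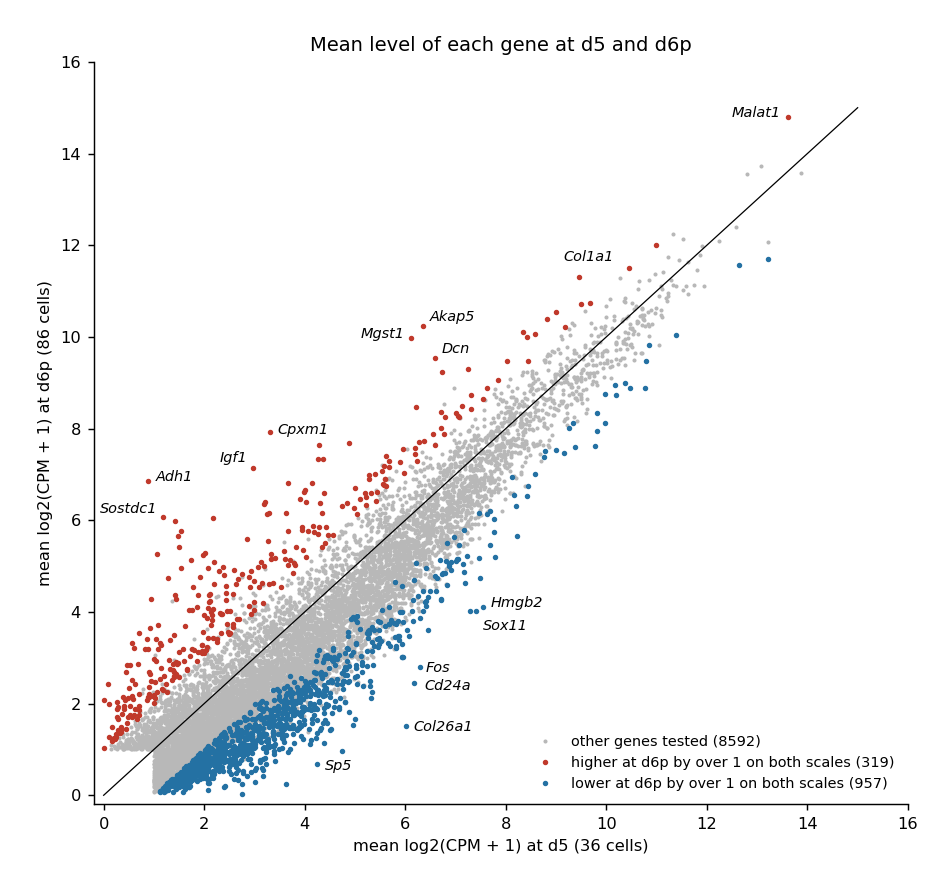
Mean log2(CPM + 1) of each of 9868 genes over 36 d5 cells (x axis) and 86 d6p cells (y axis). Red points (319) and blue points (957) passed 1 on both scales, grey points did not, and the line marks equal levels. *Adh1*, *Cpxm1* and *Akap5* lie far above the line, *Col26a1* and *Sp5* far below it.

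Against d5, the d6p cells numbered 1 to 48 had 400 genes higher (4.04%) and 1329 lower (13.4%) on both scales. The d6p cells numbered 49 to 96 had 281 higher (2.84%) and 1049 lower (10.6%). Between these ranges of d6p, 129 genes (1.42%) were higher and 82 (0.901%) lower in the later numbers. Such ranges can differ within a day, however. At d4, 580 genes (5.86%) were higher and 817 (8.25%) lower in cells numbered 1 to 48 than in later ones. The neighbouring steps gave 492 higher (4.94%) and 250 lower genes (2.51%) from d4 to d5, and 291 higher (3.12%) and 203 lower (2.17%) from d6p to d8. Against the d4 cells numbered 1 to 48 alone, d5 had 974 genes higher (9.7%) and 446 lower (4.44%). Against the later d4 cells it had 631 higher (6.31%) and 356 lower (3.56%). Days and libraries were not told apart here, since only the cell names were used.

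The largest difference upwards was that of *Adh1* (5.97), an alcohol dehydrogenase that can oxidise retinol. Its position in NCBIM37 (mm9) is chromosome 3, 137923955 to 137953662. At d5 its lowest level over cells was 0, its median 0 and its highest 551 CPM, and at d6p these were 13.9, 92.0 and 3282 CPM. Every d6p cell thus had UMIs counted for *Adh1*, while most d5 cells had none. The mean was 27.4 CPM at d5 (1974 UMIs, exact Poisson interval at 95% 1888 to 2063) and 332 CPM at d6p (20187 UMIs, 19909 to 20467). It reached 100 CPM in 2 of 36 d5 cells (5.56%, exact Clopper-Pearson interval 0.68% to 18.7%) and in 42 of 86 d6p cells (48.8%, 37.9% to 59.9%). These intervals, and all others here, cover counting error only.

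The low levels of *Adh1* were shared by cells of a group. In d4 cells numbered 1 to 48 the median was 19.7 CPM with 7 of 40 cells at 100 CPM or more, and in d4 cells above 48 the median was 0. At d8 the lowest of 62 cells held 17.2 CPM. Of the 15 genes with the largest differences upwards, 9 had a UMI in every d6p cell and 1 had a UMI in every d5 cell, a direction that their choice favours. Of all 9868 genes, 976 had a UMI in every d6p cell and 2010 in every d5 cell. Whether RNA passed between cells of a pool has a part in such low levels was not tested. Shares of cells with at least 100 CPM and means are therefore given in place of shares with a UMI.

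*Akap5*, an anchor protein that holds protein kinase A near its targets, was also among these 15 genes. Its level ran from 10.1 to 1253 CPM at d5, with a median of 64.9 CPM, and from 181 to 5299 CPM at d6p, with a median of 1264 CPM. All 86 d6p cells held at least 100 CPM, against 14 of 36 d5 cells, although the ranges overlapped. *Mgst1*, a microsomal glutathione transferase, had a median of 75.2 CPM at d5 (0 to 1776) and 1130 CPM at d6p (74.2 to 7234). It reached 100 CPM in 17 d5 cells and 84 d6p cells. The carboxypeptidase-like gene *Cpxm1* had a median of 10.9 CPM at d5 and 245 CPM at d6p, and 71 d6p cells reached 100 CPM against 2 d5 cells.

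*Igf1*, the growth factor insulin-like growth factor 1, had a median of 2.38 CPM at d5 (0 to 1094) and 165 CPM at d6p (4.09 to 2435). It was at 100 CPM or more in 7 d5 cells and 50 d6p cells. *Sostdc1*, a secreted antagonist of BMP and Wnt, differed by 4.87, with means of 63.2 CPM at d5 and 395 CPM at d6p. Only 27 d6p cells reached 100 CPM for *Sostdc1*, and 38.9% of its d6p UMIs came from 1 cell. Without the highest cell of each day, its means were 36.9 CPM and 332 CPM. The other genes of this group were *Gstm2* (4.57), *Ccl8* (4.22), *Dpt* (4.18), *Ogn* (4.17), *Plac1* (3.92), *Cxcl12* (3.88), *Angptl7* (3.47), *Mgll* (3.42) and *Adamts15* (3.39). All 15 were above 1 on both scales, and the rule that chose them asked for the same sign in each number range of d6p. The d5 and d6p cells chose these 15 genes, so their own counts of genes at 100 CPM or more (medians of 1.5 and 6.5 per cell) only describe the choice. In cells that had no part in it, the median was 4 in d4 cells numbered 1 to 48, 1 in later d4 cells and 7 at d8.

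**Figure D2:**
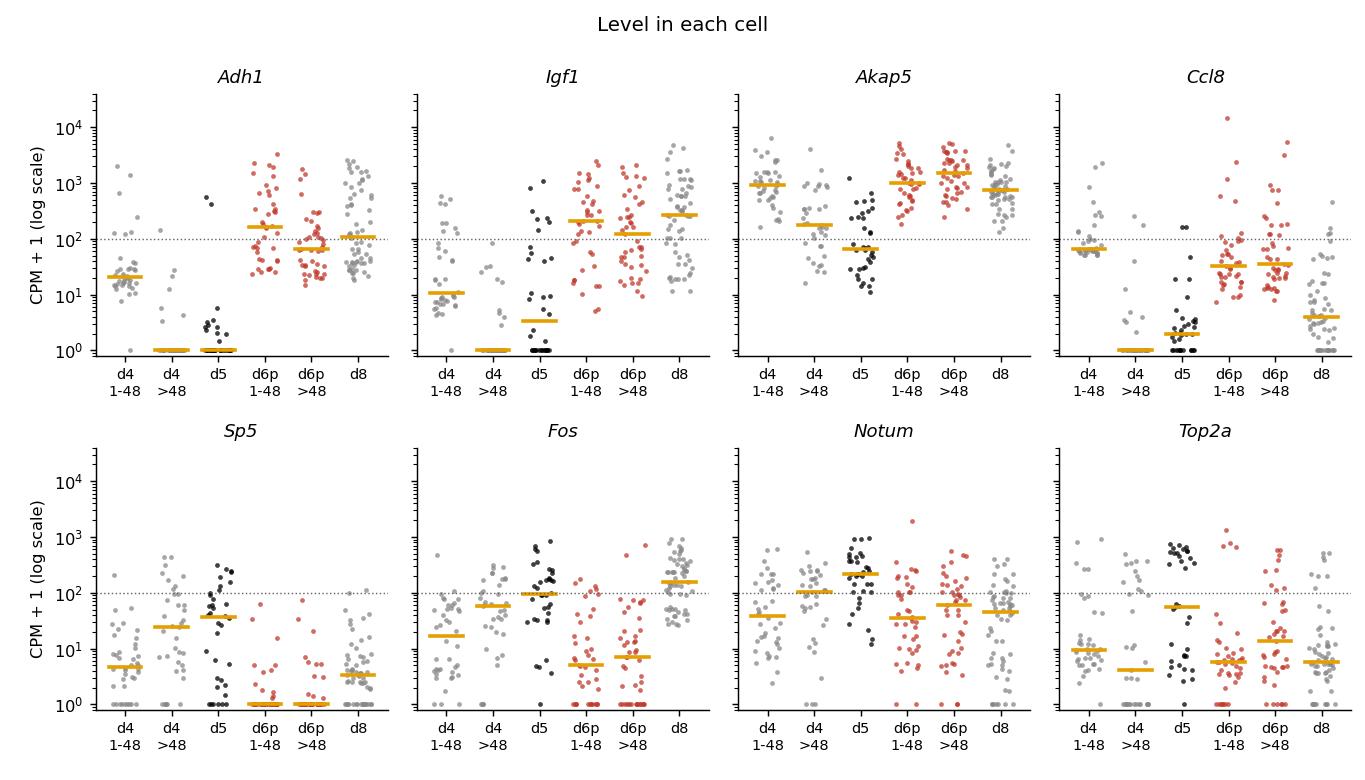
CPM + 1 (log scale) of 8 genes in each cell, for d4 and d6p split at running number 48, d5 and d8. Each point is a cell, orange bars are medians and the dotted line marks 100 CPM. All d6p cells lie above that line for *Akap5*, whereas no d6p cell does for *Sp5*.

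Genes of the extracellular matrix were higher at d6p as a list. Of 39 members tested, 12 were higher and 2 lower on both scales, or 30.8% and 5.13%, against 3.23% and 9.7% of all genes. The median difference was 0.60, against -0.61 for all genes. Lists like this one were chosen with results of these data known. *Col1a1*, a chain of type I collagen, had a median of 873 CPM at d5 (23.4 to 5410) and 2373 CPM at d6p (285 to 19558). *Dcn* (decorin) and *Lum* (lumican), proteoglycans that bind collagen fibrils, differed by 2.96 and 2.49. Decorin RNA had a mean of 412 CPM in d5 cells and 1552 CPM in d6p cells, with 19 of 36 and 78 of 86 cells at 100 CPM or more. *Lox*, the enzyme that crosslinks collagen, had means of 23.9 and 132 CPM. *Ogn*, *Col12a1*, *Thbs1*, *Thbs2*, *Col3a1*, *Col1a2*, *Col5a2* and *Col11a1* were higher as well. *Eln* (elastin) and *Col7a1* were lower, by 1.28 and 1.39 on the log2 scale. *Postn* depended on its few high cells, with 1.95 on the first scale and 0.09 on the mean CPM scale.

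The summed CPM of all 43 matrix genes had a median of 9790 per d5 cell and 16675 per d6p cell. By number range of d6p the medians were 19131 and 13870. The groups overlapped, since the highest d5 cell held 35728 CPM and the lowest d6p cell 4874. Cells of d4 numbered 1 to 48 already had a median of 13019 CPM, whereas those above 48 had 5492.

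Of 21 fibroblast identity genes tested, 7 (33.3%) were higher, namely *Osr1*, *Col1a1*, *Col1a2*, *Col3a1*, *Dcn*, *Lum* and *Fap*, against 3.23% of all genes. All but *Osr1* and *Fap* were already counted among the higher matrix genes, so the 2 lists are not separate results. The median difference of the list was 0.15, against -0.61 for all genes. With the d6p cells numbered 1 to 48 it was -0.054, and with those above 48 it was -0.048. The 2 lower genes, *Twist2* and *Thy1*, were 9.52% of the list, near the 9.7% of all genes. *Osr1*, a zinc finger factor of fibroblasts, reached 100 CPM in 0 of 36 d5 cells, with an upper limit of 9.74%, and in 13 of 86 d6p cells, with means of 4.05 and 47.1 CPM. *Twist2*, a helix-loop-helix factor of mesenchyme, had a median of 443 CPM at d5 (66.3 to 1996) and 185 CPM at d6p (5.30 to 1097). The surface protein *Thy1* had medians of 438 and 135 CPM. *Prrx1* differed by 0.15 and *Twist1* by -0.48, with overlapping ranges, and *Fbn1* (fibrillin) by 1.03 on the first scale and 0.55 on the second. *Vim* was at -0.54.

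Among XEN genes, 1 of 13 tested (7.69%, against 3.23% of all genes) was higher on both scales, *Thbd* (thrombomodulin, 1.10), and 0 were lower (against 9.7%). *Sox17* reached 100 CPM in 3 of 36 d5 cells (8.33%, 1.75% to 22.5%) and in 2 of 86 d6p cells (2.33%, 0.283% to 8.15%). Its mean was 24.8 CPM at d5 (891 UMIs) and 3.20 CPM at d6p (155 UMIs), but 1 cell held 77% of the d5 UMIs and another 74.8% of those at d6p. Without these cells the means were 10.6 and 1.40 CPM. *Sall4* had means of 2.99 and 8.29 CPM, and its difference was -0.04 on the first scale and 1.22 on the second. *Gata6* stood at 10.9 CPM on both days and *Sox7* at 5.33 and 4.06 CPM. *Gata4* had no UMI at d5 and a mean of 0.616 CPM at d6p, where no cell reached 100 CPM. *Foxa2* had no UMI on either day. The XEN master genes were thus rare on both days.

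Genes of mitosis formed the group with the largest share of lower members. Of 42 G2/M genes, all tested, 36 (85.7%) were lower on both scales and 0 were higher, against 9.7% and 3.23% of all genes. The median difference was -1.84 on the first scale and -1.65 on the second. *Ccna2* (cyclin A2) had a median of 69.7 CPM at d5 (0 to 579) and 1.34 CPM at d6p (0 to 220), and it reached 100 CPM in 16 of 36 and 6 of 86 cells. *Top2a*, the topoisomerase that untangles chromosomes, reached 100 CPM in 16 d5 cells and 13 d6p cells, with means of 239 and 82.7 CPM. *Ube2c*, which marks mitotic cyclins for destruction, had means of 645 and 96.5 CPM. *Aurkb* (aurora kinase B) and *Racgap1*, which acts in cytokinesis, differed by -2.49 and -2.35. *Cks1b*, *Pttg1*, *Nek2*, *Tpx2*, *Smc4* and *Cenpf* did not pass 1 on both scales.

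The promoters of such genes often carry a cell cycle homology region (TTTGAA), read by complexes that hold them off outside of division. In the promoter windows of RefSeq (GRCm38.p6, 250 bases before to 50 after each start), TTTGAA stood on either strand for 26 of the 36 G2/M genes with a window (72.2%), and for 20.2% of 27025 genes. CCAAT, a motif added after the data were seen, stood in 75% of the 36 and 41.1% of all. Both strands were searched for each motif, and a match of 1 motif can share an end base with a match of the other. Promoters on 1 chromosome were left out when sequences to show were chosen. Of the other genes with TTTGAA on the coding strand in the 70 bases before the start, the 4 with the lowest differences were taken. These 70 bases are shown with that motif in capitals. They match NCBIM37 (mm9) at chr7:87439292-87439361 (plus strand), chr10:68815661-68815730 (minus), chr4:118109949-118110018 (minus) and chr3:89222214-89222283 (minus).
Prc1: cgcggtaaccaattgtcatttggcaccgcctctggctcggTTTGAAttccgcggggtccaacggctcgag
Cdk1: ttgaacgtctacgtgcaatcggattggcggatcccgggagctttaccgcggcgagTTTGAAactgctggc
Cdc20: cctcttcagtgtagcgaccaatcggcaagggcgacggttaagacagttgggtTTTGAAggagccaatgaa
Cks1b: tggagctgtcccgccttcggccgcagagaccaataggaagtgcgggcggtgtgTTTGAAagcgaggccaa
The differences of these genes were -2.24 for *Prc1* (a spindle midzone protein), -1.89 for *Cdk1* (the mitotic kinase), -1.88 for *Cdc20* (an activator of cyclin destruction) and -0.78 for *Cks1b* (a subunit that binds this kinase). The motif is 30, 15, 18 and 17 bases before the start in this order.

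The days differed in the upper part of the range more than in the lower part. Summed over 42 genes, the lower quartile was 427 CPM at d5 and 498 CPM at d6p, the median 1553 and 796 CPM, and the upper quartile 12720 and 1520 CPM. At least 5000 CPM, a limit set after the data were seen, was held by 15 of 36 d5 cells (41.7%, 25.5% to 59.2%) and 11 of 86 d6p cells (12.8%, 6.56% to 21.7%). Between 4000 and 6000 CPM there were 0 d5 cells and 3 d6p cells. In the number ranges of d6p the counts were 3 of 41 and 8 of 45. They were 6 of 40 and 6 of 37 in the ranges of d4, and 7 of 62 at d8. The share was thus higher at d5 than at d4 or d8 as well, with intervals of 5.71% to 29.8% and 6.19% to 32% in the ranges of d4, which overlap that of d5, and 4.66% to 21.9% at d8.

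**Figure D3:**
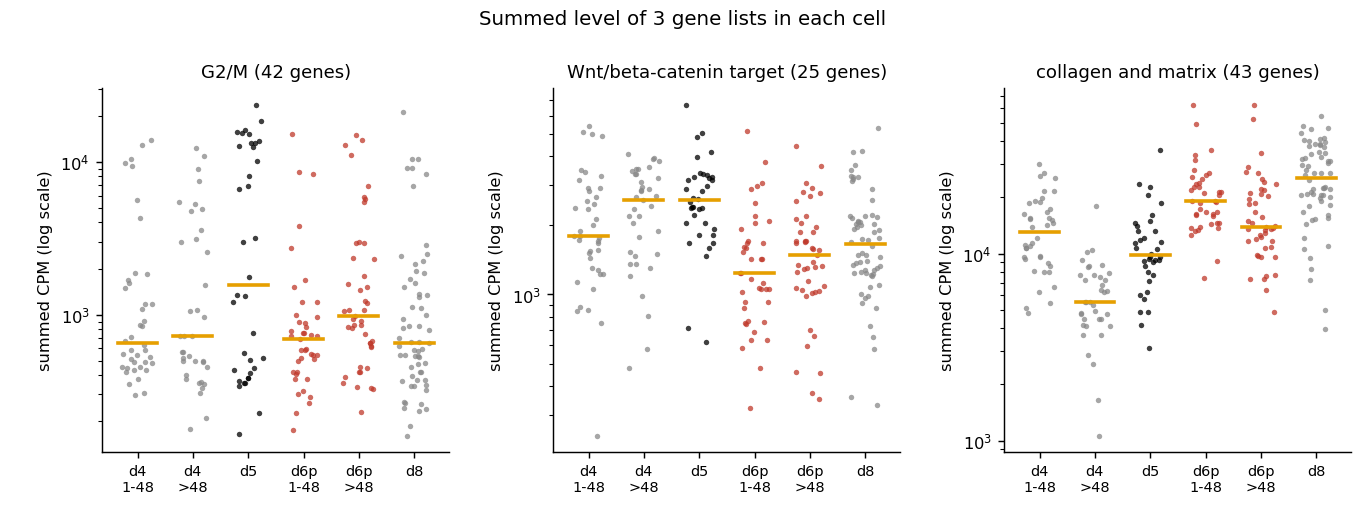
Summed CPM (log scale) of the G2/M, Wnt target and matrix genes in each cell of d4 and d6p (split at running number 48), d5 and d8, with medians as orange bars. Of the d5 cells, 15 hold at least 5000 CPM of G2/M genes.

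Among S phase genes, 13 of 34 tested (38.2%, against 9.7% of all genes) were lower and 0 higher, with a median difference of -1.20, against -0.61 for all genes. *Uhrf1*, which guides DNA methylation at replication, differed by -2.88, the replication helicase subunit *Mcm5* by -2.64, and *Cdc45*, which activates that helicase, by -2.42. *Hmgb2*, a chromatin protein abundant in dividing cells, reached 100 CPM in 21 of 36 d5 cells and 19 of 86 d6p cells. Its means were 612 and 90.4 CPM. Among p53 targets and cell cycle inhibitors the shares were near those of all genes. Of 28, 1 (3.57%, against 3.23%) was higher, *Pmaip1* (2.62), which codes for the death-promoting protein Noxa, and 4 (14.3%, against 9.7%) were lower, namely *Cdkn1b*, *Sesn2*, *Gadd45b* and *Perp*. *Cdkn1a*, the most abundant inhibitor, had means of 1891 and 1928 CPM.

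Wnt/beta-catenin targets were lower at d6p in 11 of 21 tested (52.4%, against 9.7% of all genes), and 1 was higher (4.76%, against 3.23%). The median difference was -1.25, against -0.61 for all genes. *Sp5*, a zinc finger factor that beta-catenin induces directly, had a median of 35.8 CPM at d5 (0 to 310) and 0 CPM at d6p (0 to 74.1). It reached 100 CPM in 8 of 36 d5 cells and in 0 of 86 d6p cells (0% to 4.20%). *Notum*, which strips the lipid from Wnt proteins, had a median of 213 CPM at d5 (11.1 to 945) and 43.4 CPM at d6p (0 to 1923). The secreted antagonist *Dkk1* had means of 135 and 8.81 CPM. *Nkd1*, *Rnf43*, *Wif1*, *Apcdd1*, *Bambi*, *Ccnd1*, *Myc* and *Msx1* were the other lower genes, of which the first 5 code for inhibitors of Wnt or BMP signalling. *Tnfrsf19*, a receptor of the TNF family, was higher by 1.31. *Axin2* was at -1.25 on the first scale and -0.95 on the second, and *Lef1* at -0.85 and -0.18.

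The summed CPM of 25 Wnt targets had a median of 2567 at d5 and 1361 at d6p. By number range of d6p the medians were 1243 and 1483. At d4 the medians were 1799 in the earlier and 2577 in the later numbers, and at d8 the median was 1661. The ranges overlapped, with d5 cells from 623 to 6681 CPM and d6p cells from 320 to 5164 CPM.

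BMP genes were lower in 8 of 20 tested (40%, against 9.7% of all genes) and higher in 0, with a median difference of -0.97, against -0.61 for all genes. Among the ligands, *Bmp7* had means of 69.8 and 5.85 CPM and *Bmp4* of 122 and 30.4 CPM. *Bmp2* was at -2.70 on the first scale and -0.89 on the second, with 4 of 36 d5 cells (11.1%) and 4 of 86 d6p cells (4.65%) at 100 CPM or more. Among the targets, *Id1*, which blocks differentiation factors, had a median of 1012 CPM at d5 (41.4 to 1919) and 225 CPM at d6p (5.30 to 1201). *Id3*, *Msx1*, *Msx2*, *Hey1* and the decoy receptor *Bambi* were lower too.

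**Figure D4:**
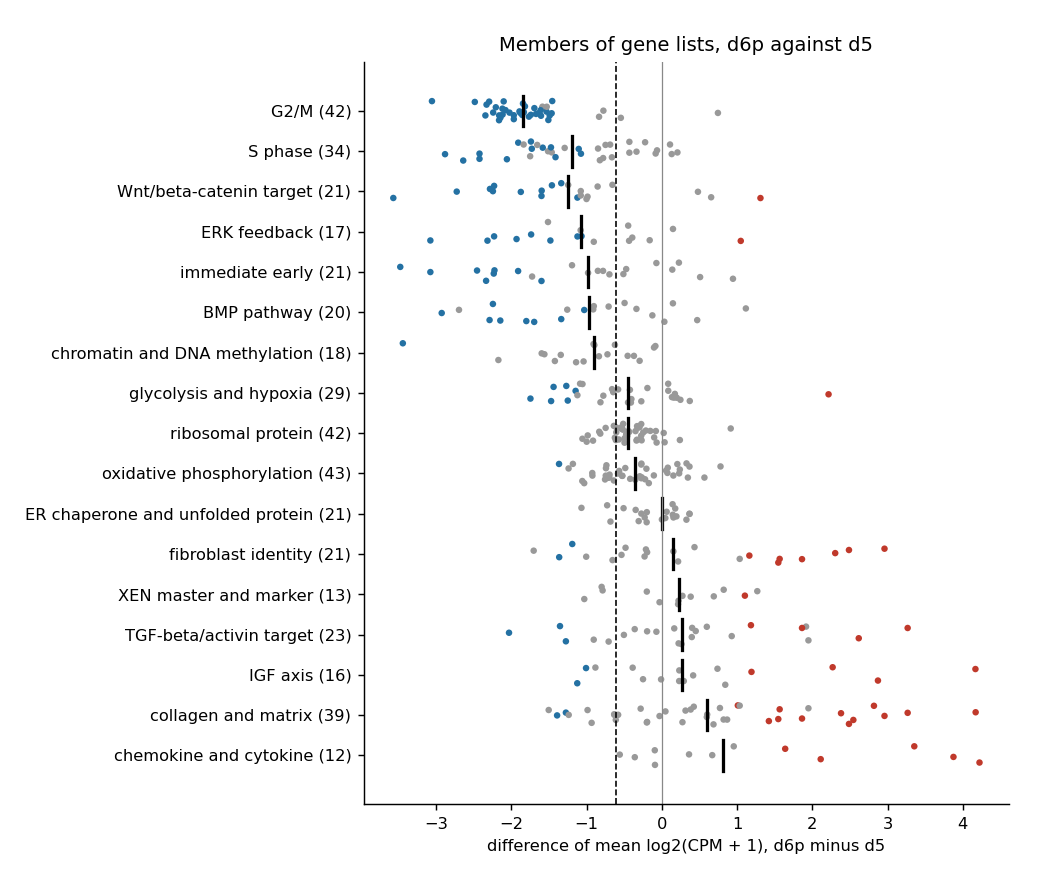
Differences of mean log2(CPM + 1), d6p minus d5, of the tested members of 17 gene lists (number tested in brackets). Red and blue points were higher or lower by over 1 on both scales, black ticks are list medians and the dashed line is the median of all genes (-0.61). The G2/M median of -1.84 lies furthest to the left.

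Immediate early genes were lower in 8 of 21 tested (38.1%, against 9.7% of all genes) and higher in 0 (against 3.23%). *Fos*, a subunit of the factor AP-1, had a median of 95.8 CPM at d5 (0 to 857) and 5.28 CPM at d6p (0 to 721). It reached 100 CPM in 17 d5 cells, 7 d6p cells and 42 of 62 d8 cells. *Egr1*, a zinc finger factor of growth factor response, had means of 63.8 and 5.40 CPM, and 42.7 CPM at d8. *Fosb*, *Junb*, *Ier2*, *Ier3*, *Myc* and *Socs3* were the other lower genes. Of the feedback genes of ERK, 8 of 17 (47.1%, against 9.7%) were lower, among them *Dusp6*, *Spry4*, *Etv4* and *Etv5*, and 1 (5.88%, against 3.23%), *Il1rl1*, was higher. The lower ERK genes include *Egr1*, also counted as an immediate early gene, and *Ccnd1*, also counted as a Wnt target. The list of cAMP response genes, in which *Fos*, *Fosb* and *Junb* also stand, had 6 of 20 lower (30%, against 9.7% of all genes) and 3 higher (15%, against 3.23%), namely *Sst*, *Pde10a* and *Pde4b*. *Pde4b* and *Pde10a* code for enzymes that break down cyclic nucleotides. *Sst* (somatostatin) rested on few cells, since 60.2% of its d6p UMIs came from 1 cell.

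Of 12 chemokine and cytokine genes tested, 5 (41.7%, against 3.23% of all genes) were higher (*Ccl7*, *Ccl8*, *Cxcl5*, *Cxcl12* and *Cxcl14*) and 0 lower. *Cxcl12*, which holds blood-forming cells near stroma, had means of 38.9 and 200 CPM, with 4 d5 cells and 32 d6p cells at 100 CPM or more. *Ccl7*, which attracts monocytes, had a median of 8.91 CPM at d5 (0 to 2557) and 144 CPM at d6p (33.4 to 20334). *Ccl8*, a chemokine encoded on the same chromosome, was more uneven, with 22 of 86 d6p cells at 100 CPM or more. Its mean was 403 CPM at d6p and 12.3 CPM at d5, and 234 and 7.96 CPM without the highest cell of each day. In d4 cells numbered 1 to 48 the mean of *Ccl8* was 2071 CPM, and 222 CPM without the highest cell, which held 68% of the UMIs. Every cell of that range held at least 49.4 CPM of *Ccl8*, whereas most d4 cells above 48 held none. Such a shared low level, as described for *Adh1*, remains in the mean without the highest cell, and its origin was not tested. At d8 the mean of *Ccl8* was 22.4 CPM. In the IGF axis, 4 of 16 (25%, against 3.23% of all genes) were higher (*Igf1*, *Igfbp5*, *Stc1* and *Pappa*, a protease that frees IGF from its binding proteins) and 2 (12.5%, against 9.7%) were lower (*Igfbp2* and *Irs2*).

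Among TGF-beta targets 4 of 23 (17.4%, against 3.23% of all genes) were higher (*Lox*, *Adam12*, *Col1a1* and *Acta2*) and 3 (13%, against 9.7%) lower (*Tgfbi*, *Bhlhe40* and *Eln*). *Tgfbi*, a matrix protein named for its induction by TGF-beta, had a median of 334 CPM at d5 (6.06 to 2361) and 48.2 CPM at d6p (0 to 909). *Acta2*, smooth muscle actin, had medians of 20.8 and 60.9 CPM with overlapping ranges. Of 17 retinoic acid genes, 1 (5.88%, against 3.23% of all genes) was higher (*Lrat*, which stores retinol as its ester) and 3 (17.6%, against 9.7%) were lower (*Rarg*, a retinoic acid receptor, *Hoxb4* and *Aldh1a2*, which makes retinoic acid). The carrier *Crabp2* was at 1.76 and 0.99. *Lrat* rested on few cells, since 1 cell held 98.3% of its d5 UMIs and another 57.3% of those at d6p.

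Further genes had large differences downwards. *Col26a1*, a collagen-like secreted protein, had a median of 75.4 CPM at d5 (0 to 962) and 0.648 CPM at d6p (0 to 500), with 16 of 36 and 3 of 86 cells at 100 CPM or more. *Sox11*, a factor of embryonic mesenchyme and neural precursors, had a median of 206 CPM at d5 (3.29 to 1346) and 15.5 CPM at d6p (0 to 959). *Cd24a*, a surface glycoprotein, had means of 221 and 78.5 CPM, and 28.5 CPM at d6p without its highest cell. *Crym*, which binds thyroid hormone, had means of 134 and 1.88 CPM, but 1 cell held 74.9% of the d5 UMIs. *Ucp2* (-3.77), *Sertad1* (-3.42), *Ssbp4* (-3.34), *Tuba1c* (-3.26), *Pxdc1* (-3.24), *Abt1* (-3.20) and *2810025M15Rik* (-3.08) complete the 15 largest. Of *Mmp13* (-2.73), a collagenase, 99% of the d5 UMIs came from 1 cell.

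The shares in lists of metabolism and stress stand beside 3.23% of all genes higher and 9.7% lower. In glycolysis and hypoxia 6 of 29 (20.7%) were lower, with *Ldha* (lactate dehydrogenase) at medians of 1124 and 413 CPM, and 1 (3.45%), *Adm* (adrenomedullin), was higher by 2.22. Of 43 oxidative phosphorylation genes 1 (2.33%) was lower, *Atp5b*, a subunit of ATP synthase, at medians of 1277 and 564 CPM. Of 21 genes of amino acid response 3 (14.3%) were lower and of 21 endoplasmic reticulum chaperones 0. In the NRF2 list 2 of 26 (7.69%) were higher (*Mgst1* and *Gpx3*) and 3 (11.5%) lower, and in the list of chromatin and DNA methylation genes *Hmgb2* alone of 18 (5.56%) was lower. Ribosomal protein genes had 0 of 42 on either side, with a median summed level of 75050 CPM per d5 cell and 63029 CPM per d6p cell.

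The nuclear RNA *Malat1* took a larger share of the UMIs at d6p. Its mean was 14502 CPM at d5 (2920 to 39841) and 35430 CPM at d6p (3255 to 145520), and the ranges of d6p had means of 40036 and 31233 CPM. The means of *Malat1* were 36698 and 20379 CPM in the ranges of d4 and 44048 CPM at d8. *Neat1*, another nuclear RNA, was lower by 1.22. CPM are shares of a total, and with the 50 most abundant genes left out of the total 446 genes were higher and 2979 lower on the first scale.

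Markers of blood and endothelial cells had low means on both days, although single cells held more. Of 15 macrophage markers 12 had no UMI at d5 and 10 none at d6p, *Ptprc*, *Adgre1* and *Lyz2* among them, and their summed mean was 14.3 and 9.25 CPM. The most abundant was *Cd14* at d5 (7.74 CPM) and *Cd68* at d6p (5.60 CPM). Of 13 endothelial markers 4 had no UMI at d5 and 5 none at d6p, with *Tie1*, *Emcn* and *Cldn5* at 0 on both days. Endothelial markers summed to a mean of 19.9 and 20.9 CPM, led by *Eng* at d5 and *Vwf* at d6p. The highest cell held 171 CPM of them at d5 and 388 CPM at d6p. Erythroid markers summed to 0.255 and 0.344 CPM, and muscle markers to 17.7 and 34.9 CPM. Of 16 muscle markers 7 had no UMI at d5 and 5 none at d6p, *Myod1* on both days. The highest cell held 222 CPM of muscle markers at d5 and 486 CPM at d6p. Epithelial markers summed to 59.0 and 75.2 CPM with *Krt18* leading on both days and *Epcam* at 0 at d6p. Their summed median per cell was 0.863 CPM at d5 and 8.46 CPM at d6p. The 2 tested, *Krt18* (1.27) and *Krt19* (1.46), were higher by over 1 on the first scale (4.05% of all genes) but not on both. Neural markers summed to 228 and 142 CPM, led by *S100b*. Of 5 neural markers tested, 2 (40%, against 9.7% of all genes) were lower, *Nes* and *Tubb3*, and 0 were higher. *Col1a1*, by contrast, was at 285 CPM or more in every d6p cell and at 23.4 CPM or more in every d5 cell.

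The days before and after show which values of d5 or d6p were shared with neighbours. Mean log2(CPM + 1) of *Adh1* was 0.42 at d3, 4.91 in d4 cells numbered 1 to 48, 0.71 in d4 cells above 48, 0.88 at d5, 6.86 at d6p and 7.28 at d8. *Dcn* was likewise higher in the earlier numbers of d4, with 9.80 and 4.43 in the ranges of d4, 6.58 at d5, 9.54 at d6p and 11.21 at d8. For *Akap5* the values were 9.84 and 7.58 in the ranges of d4, 6.34 at d5, 10.25 at d6p and 9.59 at d8. *Sp5* stood at 2.40 and 4.26 in these ranges, 4.24 at d5, 0.67 at d6p and 1.95 at d8. *Col26a1* was highest at d5 among d0 to d8, at 6.02, and *Fos* was 6.28 at d5, 2.81 at d6p and 7.25 at d8.

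**Figure D5:**
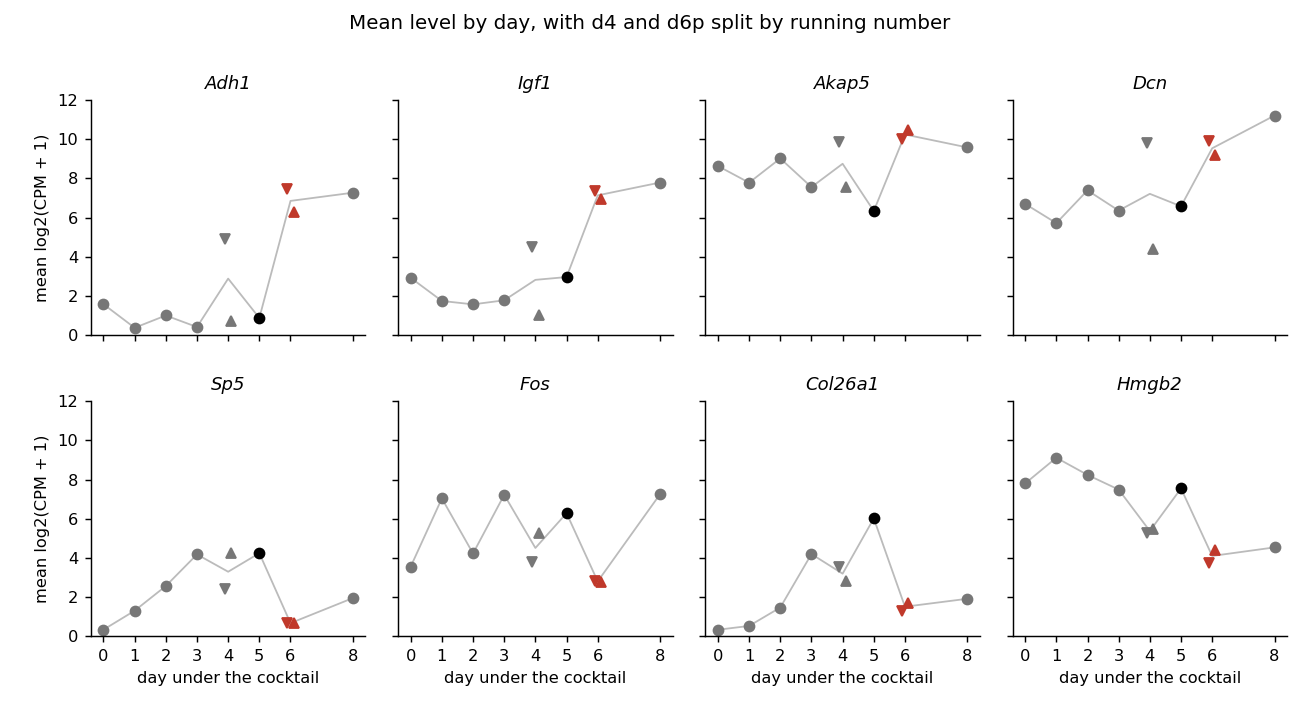
Mean log2(CPM + 1) of 8 genes by day from d0 to d8. Black circles are d5, red triangles d6p and grey triangles d4 in number ranges (pointing down for 1 to 48, up for above 48), grey circles other days, and lines join the means of all cells of a day. For *Adh1*, *Igf1*, *Akap5* and *Dcn* the d4 cells numbered 1 to 48 stand above those with later numbers.

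Part of the genes also differed between the number ranges of d4. Of the 319 genes higher at d6p than at d5, 134 (42%) were also higher in d4 cells numbered 1 to 48 than in d4 cells above 48, and these were 23.1% of the 580 genes higher there. Of all genes tested between these ranges, 5.86% were higher and 8.25% lower in d4 cells numbered 1 to 48. Of the 957 lower genes, 191 (20%) were lower in the same d4 cells, or 23.4% of 817. Genes with opposite directions numbered 14 and 20. Across the 9868 genes, which are not independent replicates, the differences in both comparisons had a Pearson correlation of 0.446 on the first scale and 0.347 on the second, and the comparisons share no cells. Part of the difference between d5 and d6p was thus also present between number ranges of 1 day.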

How the data were processed

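The deposited table of UMI counts was used. The authors' values are numbers of distinct UMIs per gene, from reads mapped to transcripts of the mouse build mm9, with each cell known by its barcode. The aligner is not given in the sources used here. The counts are whole and unscaled. The 5 values of at least 100000, all of *Malat1*, were each given to the nearest 1000. After leaving out 4 entries with duplicated date names the table held 23197 genes and 92 ERCC spike-ins, which were left out of library sizes.

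The filter was 4000 detected genes per cell. The pseudocount was 1. Genes were tested, here meaning compared, if their mean log2(CPM + 1) was at least 1 on either day. Cells of a day are 1 sample, so no p-value was computed. Members, rules and gene lists were chosen with earlier results of these data known. Named genes were the master genes of the study with *Bmp2*, *Fbn1* and *Thy1*, the 15 largest differences in each direction that kept their sign in both number ranges of d6p, and up to 4 genes with the largest differences from each of 36 lists; other genes named were chosen after their values were seen. The call on both scales was added after seeing the data. Alternatives covered filters, scaling (edgeR 4.0.16, DESeq2 1.42.0 under R 4.3.3), pseudocount, averaging, thinning and number ranges. Python 3.11.15 with numpy 2.4.6, pandas 2.3.3, scipy 1.17.1 and matplotlib 3.10.9 was used. Positions are from GENCODE on NCBIM37, counted from 1.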

Additional observations from a re-analysis of the deposited data

How the results depend on the processing

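No paired analysis was made, since the cell names hold no batch and the annotations of cells that the labels name were not analysed. An analysis by batch was not run. The median over all genes of -0.61 became -0.76 without a filter on cells, -0.72 with at least 2000 and -0.41 with at least 6000 detected genes, and -0.23 without the filter on low genes. With a pseudocount of 10, 148 genes were higher by over 1 and 556 lower, with a median of -0.27. With a pseudocount of 100, added after seeing the data, they were 21, 32 and -0.044. The log2 ratio of mean CPM + 1 gave 735, 1234 and -0.13, that of summed CPM 671, 984 and -0.051, and mean CPM without the highest cell of each day, also added, 701, 1392 and -0.18. A limit of 2 left 91 higher and 329 lower, and the call on both scales 957 lower. The excess of lower over higher genes was found under each of these settings, but its size depended on how cells were averaged, and the cause was not tested. Of 133 named genes past 1, 5 changed sign under a planned setting. *Krt18* became -0.86, *Ndufs1* 0.025 and *Hspa4* 0.047 with summed CPM, and *Stard4* became 0.021 and *Krt19* -0.0055 with mean CPM. The d5 cells carry numbers of 1 to 36 only, so later numbers at d5 were not run. Depth limits genes of a few UMIs, and their differences also depend on the pseudocount.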
